A study of Mus musculus with 6 samples.

Results

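Lipid uptake, storage and efflux were described with 10 genes in cultured mouse macrophages: Cd36, Lpl, Apoe, Fabp4, Fabp5, Plin2, Abca1, Abcg1, Nr1h3 and Pparg. The genes were taken by name from the 22180 genes that had a probe set naming 1 symbol only, and 10 of 10 were found; a gene with several such probe sets is represented by the brightest of them on average. Bone marrow cells of C57Bl/6 mice were grown for 5 days in 20 ng/ml M-CSF, the growth factor that turns monocyte precursors into macrophages, and were then scraped and replated for 6 days. There were 2 arrays for each of 3 groups. The first was kept in 50 ng/ml M-CSF. The second received 20 ng/ml FSL-1, a synthetic diacylated lipopeptide that activates TLR2 with TLR6, and the series calls these cultures multinucleated giant cells. The third received both 20 ng/ml FSL-1 and 10 µM nutlin-3a (hereafter both agents); nutlin-3a keeps Mdm2 from binding p53 and so stabilises p53. The labels do not say whether M-CSF was also given with FSL-1, which gate was used to sort the cells before extraction, or whether the 2 arrays of a group came from separate cultures or animals. A p-value therefore measures the spread between these arrays, which may be technical.

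Macrophages take up fatty acids and lipoproteins through scavenger receptors such as Cd36 and with the help of the lipase Lpl, carry fatty acids on small binding proteins, and store the surplus as triglyceride and cholesteryl ester in droplets coated with perilipins. Surplus cholesterol leaves through the transporters Abca1 and Abcg1 to apolipoproteins and lipoprotein particles, and macrophages secrete Apoe, which takes part in this removal. A pair of nuclear receptors regulates much of this programme. LXR alpha, encoded by Nr1h3, is activated by oxysterols and pairs with RXR on repeats of the half-site AGGTCA spaced by 4 bases (DR4), among others at Abca1, while PPAR gamma, encoded by Pparg, is activated by fatty acid derivatives and pairs with RXR on repeats spaced by 1 base (DR1), among others at Fabp4, Cd36 and Plin2. Macrophages that fill with lipid droplets are known as foam cells.

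The promoters of the LXR alpha gene, of an efflux transporter and of a droplet coat and an uptake receptor are shown, because the receptor gene and genes known as receptor targets are set side by side in the results. RefSeq promoter windows (GRCm38.p6) were found for 6 of the 10 genes, 11 windows in all, and the 250 bases before the annotated start were searched on both strands for DR4 and DR1, allowing up to 3 of the 12 half-site bases to differ. This limit was set after the Abca1 match had been seen. The 4 sequences below are from chr4:53159896-53160145, chr4:86670060-86670309, chr5:17835897-17836146 and chr2:91195117-91195366, all on the minus strand, written 5′ to 3′ toward the start; capitals mark the closest match of either motif.
Abca1: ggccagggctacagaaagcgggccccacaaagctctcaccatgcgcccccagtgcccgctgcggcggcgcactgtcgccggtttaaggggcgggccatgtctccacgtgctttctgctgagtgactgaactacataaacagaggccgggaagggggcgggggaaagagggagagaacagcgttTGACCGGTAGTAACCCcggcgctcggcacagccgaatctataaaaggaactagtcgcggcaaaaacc
Plin2: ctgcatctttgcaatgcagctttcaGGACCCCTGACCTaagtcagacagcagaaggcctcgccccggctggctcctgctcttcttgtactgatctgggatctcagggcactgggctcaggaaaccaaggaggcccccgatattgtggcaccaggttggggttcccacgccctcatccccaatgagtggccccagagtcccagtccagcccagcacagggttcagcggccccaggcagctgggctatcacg
Cd36: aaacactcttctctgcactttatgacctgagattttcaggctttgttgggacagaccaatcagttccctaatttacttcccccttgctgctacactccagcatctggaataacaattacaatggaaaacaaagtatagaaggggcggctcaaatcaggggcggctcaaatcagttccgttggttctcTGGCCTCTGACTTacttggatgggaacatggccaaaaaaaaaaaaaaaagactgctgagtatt
Nr1h3: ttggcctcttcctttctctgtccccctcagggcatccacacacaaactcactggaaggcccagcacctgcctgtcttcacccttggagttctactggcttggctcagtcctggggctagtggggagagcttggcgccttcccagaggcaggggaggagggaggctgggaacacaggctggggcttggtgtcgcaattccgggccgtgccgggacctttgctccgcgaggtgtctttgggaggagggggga

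The Abca1 window held a DR4 match with 3 mismatches, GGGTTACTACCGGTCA on the opposite strand, from base 67 to base 52 before the start. A DR4 match of this kind was found in 18.5% of all 32851 windows of the same length. DR1 matches with 2 mismatches lay 225 to 213 bases before the Plin2 start (AGGTCAGGGGTCC) and 63 to 51 bases before the Cd36 start (AAGTCAGAGGCCA). DR1 matches with up to 3 mismatches were found in 21.3% of all windows, and the share with up to 2 was not computed. The most upstream of the 3 Apoe windows held a DR1 match with 3 mismatches. The 2 windows of Nr1h3 and the 3 of Pparg held neither motif, and in no window did a DR4 match overlap a DR1 match. These matches describe the letters only.

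The cells had the transcripts of macrophages. Of 14 macrophage markers, 13 were measured and 0 lay below the median of probe sets without a gene name (4.25 on the log2 scale), and their summed level on the linear scale was 41880 to 44070 in M-CSF, 42340 to 43400 in FSL-1 and 41810 to 42250 in FSL-1 + nutlin-3a. Bright genes weigh most in such sums, here Cd68, Lyz2 and C1qb, and changes of dimmer markers hardly show in them. The lysosomal marker Cd68 had group means of 13.22 in M-CSF, 13.09 in FSL-1 and 13.24 with both agents (log2, n = 2 each). Among these markers Adgre1 (0.56) and Itgam (0.74) rose and the M-CSF receptor gene Csf1r (-0.87) fell with FSL-1, and Fcgr1 (-1.58), Cd14 (-1.12) and C1qa (-1.03) fell with nutlin-3a. Replicate arrays correlated at 0.9929 to 0.9951 across genes and arrays of different groups at 0.9788 to 0.9858. In bulk RNA such as this, fewer cells of a type and less RNA per cell cannot be told apart.

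**Figure D1:**
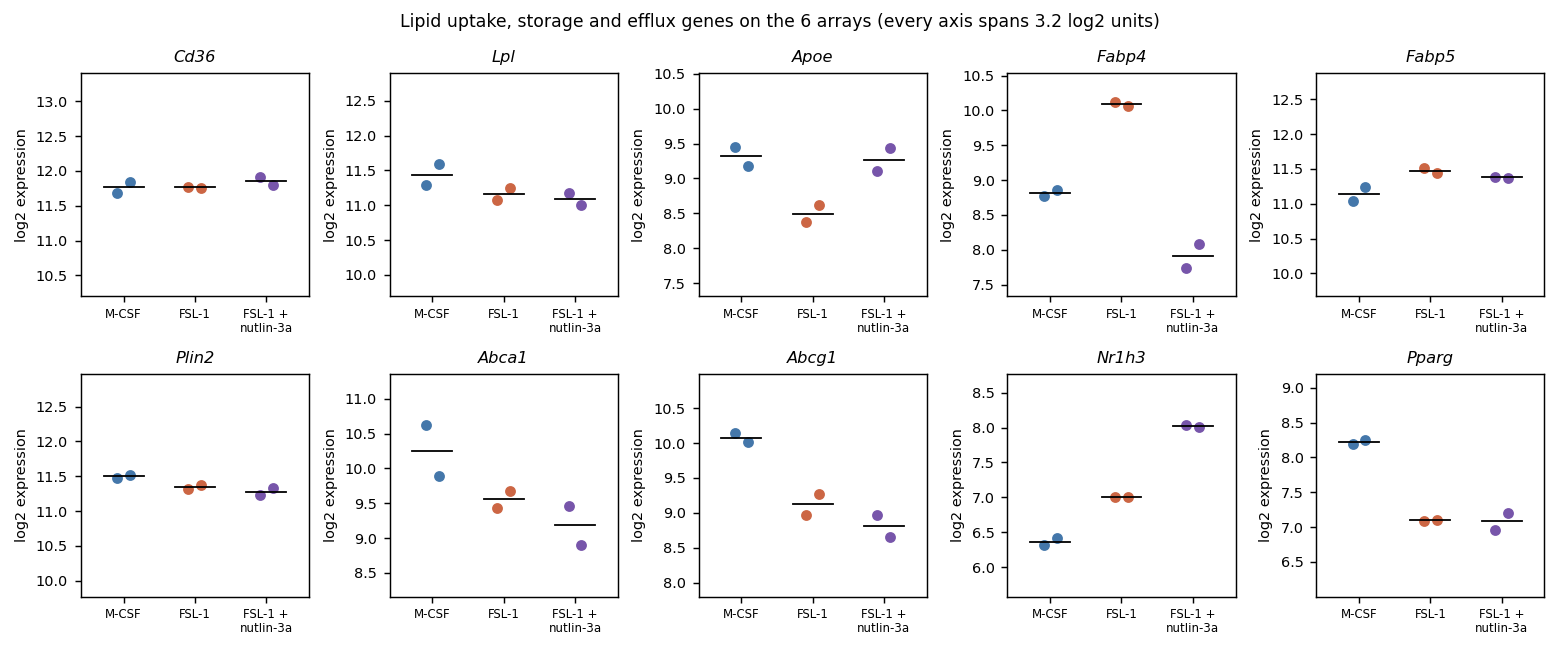
Log2 expression (vertical axis) of the 10 genes on each of the 6 arrays, in M-CSF, FSL-1 and FSL-1 + nutlin-3a (horizontal axis). Points are arrays, lines are group means, and every axis spans 3.2 log2 units at its own offset. Fabp4 was highest in FSL-1 and lowest with nutlin-3a, Nr1h3 rose in both steps, and Cd36 lay between 11.69 and 11.91 on all arrays.

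Levels are log2 expression values, and a change is the difference of 2 group means on that scale, tested with limma on all 6 arrays and adjusted over all 22180 genes (Benjamini-Hochberg, called below 0.05). First, giant cell cultures (FSL-1) were set against macrophages kept in M-CSF. Of the 10 genes, 2 were called higher, Fabp4 and Nr1h3, and 3 were called lower, Abcg1, Pparg and Apoe. Of all genes, 3.91% were called higher and 2.95% lower. The median change of the 10 genes was -0.21, beside -0.01 over all genes. Adding nutlin-3a to FSL-1, meant to raise active p53, was the second comparison. Here 2 of the 10 genes were called higher, Nr1h3 and Apoe, and 1 lower, Fabp4, against 2.38% and 4.12% of all genes; the median change was -0.07, beside 0.02 over all genes. Between both agents and M-CSF, 1 gene was called higher, Nr1h3, and 4 lower, Fabp4, Abca1, Abcg1 and Pparg, against 4.58% and 4.94% of all genes. The 3 comparisons share arrays: a high or low FSL-1 array moves the first and second in opposite directions. The arrays of the compared groups did not overlap for 9, 5 and 8 of the 10 genes in the 3 comparisons. Of all genes, 50.2%, 50.9% and 51.5% did not overlap, so such separation of 2 arrays from 2 says little by itself.

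Among the uptake genes, Cd36, the receptor for fatty acids and oxidised lipoproteins, had 11.69 and 11.84 in M-CSF, 11.77 and 11.76 in FSL-1, and 11.91 and 11.79 with nutlin-3a. The M-CSF arrays lay on both sides of the FSL-1 arrays. No comparison was called, and the 95% intervals of the log2 change were -0.28 to 0.27 for FSL-1 against M-CSF, -0.19 to 0.36 for nutlin-3a against FSL-1 and -0.19 to 0.36 for both agents against M-CSF.

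Lpl, the lipase that releases fatty acids from lipoprotein triglyceride, had 11.29 and 11.59 in M-CSF, 11.08 and 11.25 in FSL-1, and 11.18 and 11.00 with nutlin-3a. Both treated groups lay below M-CSF and overlapped each other, but the changes against M-CSF of -0.28 (95% interval -0.61 to 0.06, adjusted p = 0.345, limma) and -0.35 (-0.69 to -0.01, adjusted p = 0.197, limma) were not called. The other Lpl probe set was far dimmer, with group means of 6.75, 7.01 and 6.75, and its difference between FSL-1 and M-CSF was 0.26, opposite in sign to that of the probe set used.

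Apoe, the secreted apolipoprotein that carries cholesterol from macrophages, had 9.45 and 9.18 in M-CSF, 8.37 and 8.62 in FSL-1, and 9.11 and 9.44 with nutlin-3a. The FSL-1 arrays lay below all others, and the M-CSF and nutlin-3a arrays overlapped. Apoe fell by 0.82 with FSL-1 (SE 0.164, adjusted p = 0.025, limma), 1.77-fold lower, and rose by 0.78 with nutlin-3a (SE 0.164, adjusted p = 0.0334, limma). Both agents against M-CSF gave a change of -0.04 (95% interval -0.42 to 0.34). Both calls rested on few arrays: the fall was no longer called after dropping either FSL-1 array or the first M-CSF array, with adjusted p up to 0.169, and the rise after dropping any 1 of the 4 arrays it compares, with adjusted p up to 0.197.

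Fabp4 and Fabp5 are close relatives that bind fatty acids in the cytosol, and both are found in macrophages. Fabp4 had 8.77 and 8.85 in M-CSF, 10.12 and 10.06 in FSL-1, and 7.74 and 8.08 with nutlin-3a. The 3 groups did not overlap. Fabp4 rose 2.44-fold with FSL-1, from 8.81 ± 0.06 to 10.09 ± 0.04 (log2, mean ± SD, n = 2 each; change 1.28, SE 0.14, adjusted p = 0.00182, limma). With nutlin-3a it fell 4.55-fold, to 7.91 ± 0.24 (change -2.19, adjusted p = 0.000266, limma), and it then lay 1.87-fold below M-CSF (change -0.90, adjusted p = 0.00599, limma). These 3 calls were made under every alternative and without any 1 array, with changes of 1.24 to 1.33, -2.35 to -2.02 and -1.07 to -0.73.

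Fabp5 had 11.04 and 11.25 in M-CSF, 11.51 and 11.44 in FSL-1, and 11.38 and 11.37 with nutlin-3a. Its FSL-1 arrays lay above the others, but the change of 0.33 (95% interval 0.05 to 0.61, adjusted p = 0.168, limma) was not called; it was called only with a trended and robust variance prior (adjusted p = 0.0158). The nutlin-3a interval, -0.38 to 0.19, did not reach the size of the Fabp4 change. All 4 probe sets of Fabp5 had a higher mean in FSL-1 than in M-CSF, by 0.17 to 0.55, and differed by -0.11 to 0.14 between nutlin-3a and FSL-1. RefSeq lists a Fabp5 pseudogene, Fabp5l2, so signal from near-identical copies cannot be told apart from that of Fabp5 and its level is uncertain.

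Fabp4 is also abundant in adipocytes and endothelial cells, and their markers were read beside it. Of all genes, 6.86%, 6.5% and 9.51% were called in either direction in the 3 comparisons. Of 9 measured adipocyte markers 0 were called in any comparison, with summed levels of 303 to 322 in M-CSF, 311 to 313 in FSL-1 and 319 to 325 with nutlin-3a, and 3, 2 and 3 of the 9 had a group mean below the median of unnamed probe sets. Adipoq and Acvr1c lay below it in all 3 groups, and Lep in M-CSF and with nutlin-3a but not in FSL-1 (4.29). Endothelial markers had summed levels of 761 to 780, 604 to 654 and 414 to 422. Of 12 such markers 1 was called lower with FSL-1, Kdr (-0.51, adjusted p = 0.0467, limma), beside 2.95% of all genes. With nutlin-3a 2 were called lower, Kdr (-1.25) and Vwf (-1.71), beside 4.12% of all genes. In the 3 groups 3, 2 and 3 of the 12 lay below the median of unnamed probe sets, Erg and Emcn in each of them. Cdh5, the endothelial cadherin, lay above it, with means of 4.97, 5.28 and 4.75 in the order of Fabp4, and was not called (changes of 0.31 and -0.53); Egfl7, Esam and Cldn5 also lay above it. The part of these cells in the Fabp4 levels was not tested.

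Plin2, the perilipin that coats lipid droplets in macrophages, had 11.48 and 11.52 in M-CSF, 11.32 and 11.38 in FSL-1, and 11.23 and 11.33 with nutlin-3a. The treated arrays all lay below the M-CSF arrays, by little. The changes were -0.15 with FSL-1 (95% interval -0.41 to 0.11), -0.07 with nutlin-3a (-0.33 to 0.19) and -0.22 between both agents and M-CSF (-0.48 to 0.04), and none was called.

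**Figure D2:**
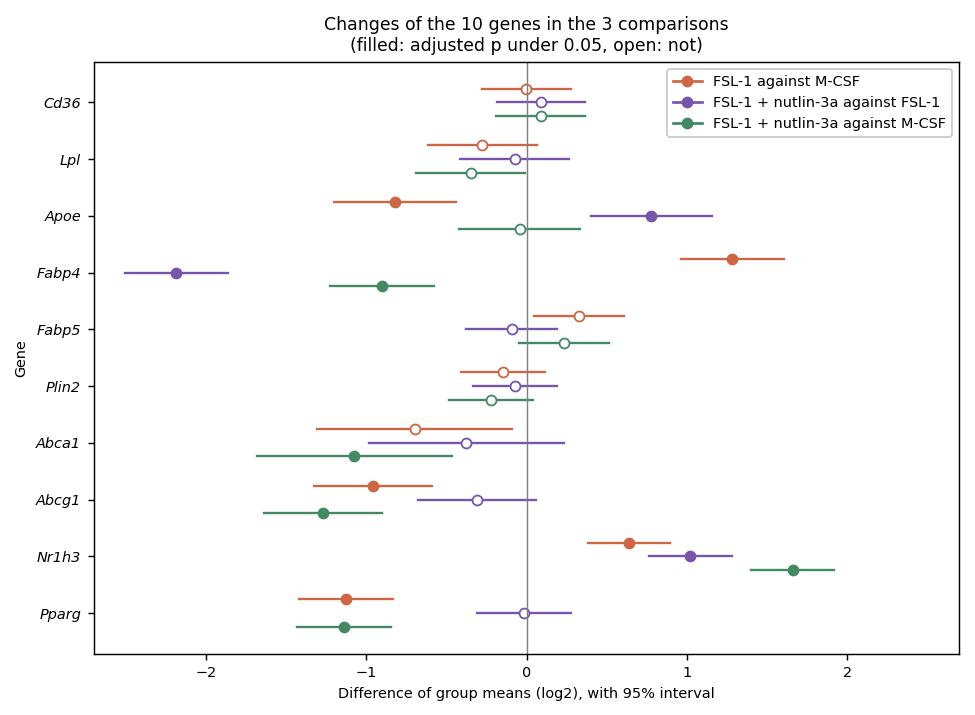
Difference of group means on the log2 scale (horizontal axis) for each of the 10 genes (vertical axis) in the 3 comparisons, with 95% intervals from limma; filled points were called at an adjusted p under 0.05. The Fabp4 interval for nutlin-3a, -2.51 to -1.86, lies furthest from 0, and the Cd36 intervals all cover 0.

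Among the efflux transporters, Abcg1, which passes cholesterol to HDL particles, had 10.15 and 10.01 in M-CSF, 8.97 and 9.27 in FSL-1, and 8.97 and 8.65 with nutlin-3a. All 4 treated arrays lay below both M-CSF arrays, and the treated groups overlapped. Abcg1 fell 1.94-fold with FSL-1 (change -0.96, SE 0.159, adjusted p = 0.0121, limma), a call that needed the first M-CSF array and the first FSL-1 array (adjusted p of 0.0886 and 0.0956 without them). It lay 2.41-fold below M-CSF with both agents (change -1.27, adjusted p = 0.00223, limma), and this call was made under every alternative and without any 1 array. The change when nutlin-3a was added to FSL-1, -0.31 (95% interval -0.68 to 0.06), was not called.

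Abca1, which loads cholesterol and phospholipid onto lipid-poor apolipoproteins and whose promoter holds the DR4 match shown above, had 10.62 and 9.89 in M-CSF, 9.44 and 9.68 in FSL-1, and 9.46 and 8.90 with nutlin-3a. Both treated groups lay below M-CSF and overlapped each other, and the M-CSF arrays differed most (SD 0.52). With FSL-1 the change was -0.70 (95% interval -1.31 to -0.09, adjusted p = 0.176, limma). Between both agents and M-CSF it was -1.07 (SE 0.264, adjusted p = 0.0422, limma), and 2.11-fold lower. This call was not made when only the 4 arrays it compares were fitted (adjusted p = 0.0687), with a crossed replicate block (0.0654), or after dropping any array but the second of M-CSF; over all alternatives the change was -1.44 to -0.71 and the adjusted p 0.0227 to 0.191. The change with nutlin-3a, -0.38 (-0.99 to 0.23), was not called.

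Nr1h3, the gene of LXR alpha, had 6.31 and 6.42 in M-CSF, 7.01 and 7.00 in FSL-1, and 8.04 and 8.01 with nutlin-3a. The 3 groups followed in this order without overlap. Nr1h3 rose 1.56-fold with FSL-1 (change 0.64, SE 0.112, adjusted p = 0.015, limma) and 2.03-fold more with nutlin-3a (change 1.02, adjusted p = 0.00235, limma). With both agents it stood 3.16-fold above M-CSF, at 8.02 ± 0.02 against 6.36 ± 0.07 (n = 2 each; change 1.66, adjusted p = 0.000114, limma). The last 2 calls were made under every alternative and without any 1 array; the FSL-1 call needed both FSL-1 arrays and the first M-CSF array, with changes of 0.59 to 0.69 and adjusted p up to 0.105.

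Pparg, the gene of PPAR gamma, had 8.19 and 8.25 in M-CSF, 7.09 and 7.10 in FSL-1, and 6.95 and 7.21 with nutlin-3a. The treated arrays all lay well below the M-CSF arrays, and the FSL-1 arrays fell between the nutlin-3a arrays. Pparg fell 2.18-fold with FSL-1 (change -1.13, SE 0.126, adjusted p = 0.00206, limma) and stood 2.2-fold below M-CSF with both agents (change -1.14, adjusted p = 0.00124, limma). Both calls were made under every alternative and without any 1 array. For nutlin-3a against FSL-1 the change was -0.01 (95% interval -0.31 to 0.28), and its sign turned without the first nutlin-3a array (0.11) and when quantile normalization was applied once more (0.04).

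Side by side, Nr1h3 rose in both steps, in the first by a less stable call. Abcg1, and by a less stable call Abca1, were lower with both agents than in M-CSF. Apoe, which also takes part in efflux, fell in the first step and rose with Nr1h3 in the second, both less stable calls. Its change between both agents and M-CSF was -0.04. Pparg differed by -0.01 between the treated groups, Fabp4 rose in the first step and fell in the second, and Cd36 and Plin2 were called in no comparison. Receptor protein and ligands were not measured.

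Other genes of these pathways were read from 6 lists that also hold the members and share some genes with each other. The counts that follow leave the members out, and the medians stand beside -0.01, 0.02 and 0.02 over all genes. Beside the counts stand the shares of all genes called: 3.91% higher and 2.95% lower with FSL-1, 2.38% and 4.12% with nutlin-3a. With both agents against M-CSF these shares were 4.58% and 4.94%. Of 14 other lipoprotein and scavenger uptake genes, 4 rose and 5 fell with FSL-1, with a median change of 0.05. Cxcl16, a scavenger receptor for oxidised lipoproteins, rose 2.14-fold (from 9.87 ± 0.28 to 10.97 ± 0.12, log2, n = 2 each), while the scavenger receptor Stab1 (-0.95), the large endocytic receptor Lrp1 (-0.87), which takes up Apoe-bearing particles, and the sorting receptor Sorl1 (-1.07) fell. Lrp1 and Sorl1 rose with nutlin-3a, by 1.20 and 1.85, and were the 2 called of 14, with 0 lower (median 0.18); both rises were called whichever array was dropped. Of the 4 changes with FSL-1, only the Stab1 call was made whichever array was dropped: Cxcl16 needed the second FSL-1 array, Sorl1 the first of FSL-1 and of M-CSF, and Lrp1 both of FSL-1 and the first of M-CSF (adjusted p up to 0.0915, limma). With both agents against M-CSF, 5 were higher and 3 lower (median 0.24), among them Cxcl16 (1.39), Msr1 (1.32), the class A scavenger receptor, Vldlr (1.01) and Scarf1 (0.82), the last a call that needed the second array of each group. Msr1 (1.12), Vldlr (0.61) and Scarf1 (0.74) were already called higher with FSL-1. Their changes with nutlin-3a, 0.20, 0.40 and 0.09, were not called. After dropping any 1 compared array, the counts of 4 and 5 became 0 to 3 and 1 to 3, the count of 2 stayed at 2, and the counts of 5 and 3 became 3 to 5 and 0 to 1.

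Of 15 other fatty acid transport and activation genes, 1 rose and 0 fell with FSL-1 (median 0.06). It was Fabp7, another binding protein of the Fabp4 family, best known from brain, with 5.62 and 5.46 in M-CSF, 7.96 and 8.01 in FSL-1, and 8.11 and 8.19 with nutlin-3a. The M-CSF arrays lay far below the others, and Fabp7 rose 5.44-fold with FSL-1 (change 2.44, SE 0.118, adjusted p = 2.99e-05, limma). Its change with nutlin-3a was 0.17 (adjusted p = 0.482, limma), whereas Fabp4 fell there. The fatty acid transporter Slc27a1 was the 1 gene that fell with nutlin-3a, by 0.97, with 0 higher (median -0.08), and the call was lost without the first FSL-1 array. Both agents against M-CSF gave 1 higher, Fabp7 (2.61), and 1 lower, Slc27a1 (-0.92), with a median of -0.09. Leaving out 1 compared array gave 0 to 2 lower with nutlin-3a.

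Of 24 other droplet storage and lipolysis genes, 1 rose and 1 fell with FSL-1 (median 0.10): Gpat3, an acyltransferase of triglyceride synthesis (0.72), and Lpin1, a phosphatidate phosphatase (-0.93). With nutlin-3a both turned, Gpat3 to -0.94 and Lpin1 to 0.71, and the perilipin Plin3 fell by 0.80, giving 1 higher and 2 lower (median -0.02). With both agents against M-CSF, 0 were higher and Plin3 was lower (-0.61, median 0.04). Gpat3 was dim, with group means of 4.63, 5.35 and 4.41, beside 4.25 for the median of unnamed probe sets. The Gpat3 calls were lost with the mean of its probe sets (changes of 0.35 and -0.31) and without the first FSL-1 array, and that with FSL-1 also without the second FSL-1 array or the first M-CSF array (adjusted p up to 0.123 without 1 array, limma). The Lpin1 call with FSL-1 was lost without the first FSL-1 array. The rise of Lpin1 and the fall of Plin3 against M-CSF needed all 4 arrays, and the fall of Plin3 with nutlin-3a all but the first nutlin-3a array. Leaving out 1 compared array gave 0 to 1 in each direction with FSL-1, 0 higher and 0 to 2 lower with nutlin-3a, and 0 to 1 higher and 0 lower in the last comparison.

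Of 16 other efflux and LXR genes, 2 rose and 1 fell with FSL-1 (median -0.09), 1 rose and 1 fell with nutlin-3a (median -0.06), and 3 were higher and 1 lower with both agents against M-CSF (median -0.03). Ch25h, which makes an oxysterol from cholesterol, had 5.62 and 5.85 in M-CSF, 9.15 and 8.85 in FSL-1, and 6.45 and 6.54 with nutlin-3a. Its FSL-1 arrays stood far above the rest. Ch25h rose 9.65-fold with FSL-1 (change 3.27, SE 0.146, adjusted p = 2.41e-05, limma), fell 5.69-fold with nutlin-3a (change -2.51, adjusted p = 0.00021, limma) and remained 0.76 above M-CSF; with the mean of its probe sets the first 2 changes were 2.04 and -1.53, still called, and the last was 0.50, not called. The first 2 calls were made whichever array was dropped, and the last needed both nutlin-3a arrays and the first M-CSF array.

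Cyp27a1, a mitochondrial enzyme that makes another oxysterol, was lower instead, going from 9.31 and 8.66 in M-CSF to 7.65 and 7.86 in FSL-1 and 7.44 and 7.29 with nutlin-3a. It fell by 1.23 with FSL-1 (adjusted p = 0.0129, limma, lost without either FSL-1 array) and stood 3.08-fold below M-CSF with both agents (change -1.62, adjusted p = 0.00248, limma). Rxra, a partner of both receptors, rose by 0.76 with nutlin-3a (adjusted p = 0.0176, limma), from 7.92 ± 0.07 to 8.68 ± 0.11, a call that needed all 4 arrays it compares. Smpdl3a, a phosphodiesterase, rose by 0.65 with FSL-1, a call that also needed all 4. Rxra (0.60) and Smpdl3a (0.51) were the other genes higher with both agents than in M-CSF. Both calls were lost with each array centred on its median, with only the compared groups fitted, and for Smpdl3a with the replicate block. They were also lost after dropping any array but, for Rxra, the first of M-CSF. Leaving out 1 compared array gave 1 higher and 0 to 1 lower with FSL-1, 0 higher and 1 lower with nutlin-3a, and 0 to 1 higher and 1 lower in the last comparison.

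**Figure D3:**
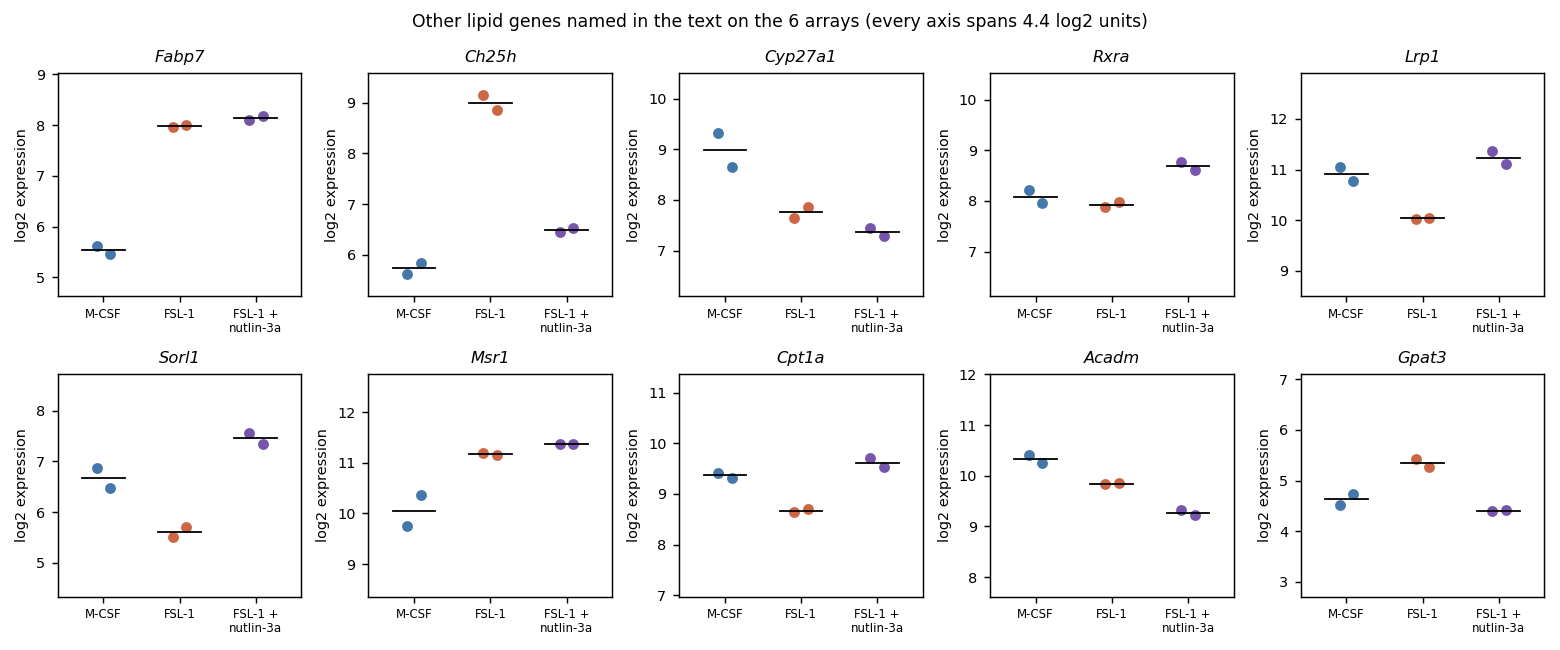
Log2 expression (vertical axis) on each of the 6 arrays, by group (horizontal axis), of 10 other lipid genes of the lists. Points are arrays, lines are group means, and every axis spans 4.4 log2 units at its own offset. Ch25h stands at 9.15 and 8.85 in FSL-1 and lower elsewhere, Fabp7 is low in M-CSF only, and Lrp1, Sorl1 and Cpt1a are lowest in FSL-1.

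Of 15 other PPAR factors and targets, 1 rose and 2 fell with FSL-1 (median -0.10), 3 rose and 2 fell with nutlin-3a (median -0.00), and 2 were higher and 3 lower with both agents against M-CSF (median 0.07). Cebpb, a transcription factor of inflammatory and adipogenic programmes, rose by 1.12 with FSL-1 and Cebpa by 0.68 with nutlin-3a, the latter a call that needed all 4 arrays. Of 18 fatty acid oxidation genes, 2 fell with FSL-1 (median -0.17), 1 rose and 2 fell with nutlin-3a (median -0.00), and 4 were lower with both agents against M-CSF (median -0.29), with no other calls. Cpt1a, the gate of mitochondrial fatty acid import, fell by 0.70 with FSL-1 and rose by 0.95 with nutlin-3a. The thiolase Acaa2 fell by 0.64 with FSL-1, while the acyl-CoA dehydrogenases Acadm (-0.57) and Acadl (-0.66) fell with nutlin-3a. Against M-CSF, Acadm (-1.06), Acadl (-0.76), Acaa2 (-0.74) and Etfb (-0.55) were lower with both agents. The Acadm and Acadl calls with nutlin-3a, the Acaa2 call with FSL-1 and the Etfb call against M-CSF needed all 4 arrays, and that of Acadm was also lost with the replicate block (adjusted p = 0.0525, limma). The Cpt1a call with FSL-1 needed both FSL-1 arrays and the first M-CSF array, and that with nutlin-3a the first FSL-1 array; the Acaa2 call against M-CSF needed the first array of each group. Leaving out 1 compared array gave, for the PPAR list, 1 higher and 0 to 1 lower, 0 to 1 and 0, and 0 to 2 and 2 to 3 in the 3 comparisons. For the oxidation list it gave 0 to 1 lower, 0 to 1 higher and 0 lower, and 2 to 3 lower.

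**Figure D4:**
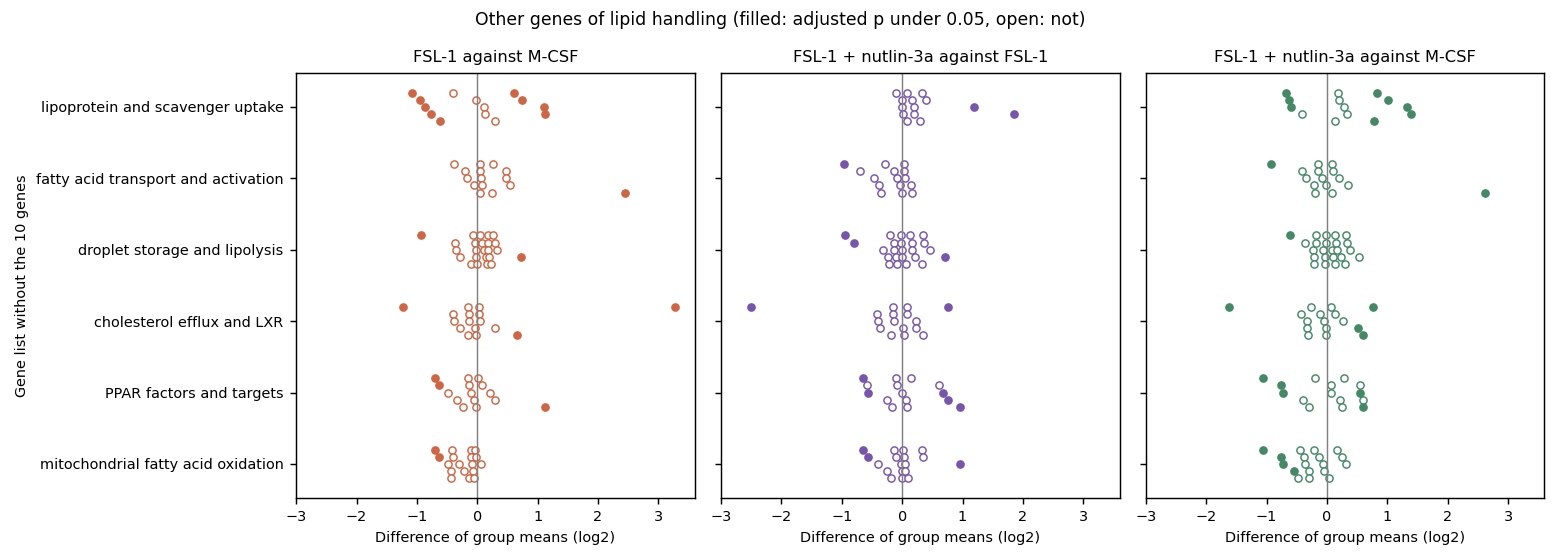
Change on the log2 scale (horizontal axis) of every measured gene of 6 lipid gene lists without the 10 members (vertical axis, points spread for legibility), in the 3 comparisons. Filled points were called at an adjusted p under 0.05. Ch25h at 3.27 and -2.51 and Fabp7 at 2.44 and 2.61 lie furthest out.

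Patterns like those of the called members were sought over all genes, as the root mean square (RMS) difference on the log2 scale over the 6 arrays after centring each gene on its own mean. Nearest to Fabp4 were Ifitm6, an interferon-induced transmembrane gene (RMS difference 0.10), the stress-induced Nupr1 (0.17) and the costimulatory Cd86 (0.18). Abcg1 was nearest to Kctd12b (0.05), Txnip (0.09) and Tgfbi (0.09), and Abca1 to H2bc9 (0.11), Calhm6 (0.13) and Gm3414 (0.13). For Nr1h3 they were Ptgfrn (0.09), the gelatinase Mmp2 (0.11) and Treml4 (0.12), for Pparg Rubcnl (0.11), Ptafr (0.13) and Gpr160 (0.13), and for Apoe Adap2 (0.07), Baiap2 (0.08) and Nfatc2 (0.09). None of these 18 genes is in the lipid lists.

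Markers of further cell types were described in the same way, and their counts stand beside the shares of all genes called given with the lists. Neutrophil markers had summed levels of 619 to 680 in M-CSF, 1425 to 1440 in FSL-1 and 994 to 1052 with nutlin-3a, with 4 of 14 higher in the first comparison and 2 lower in the second. Lcn2 (2.77), Mmp8 (2.51), S100a8 (2.40) and Cxcr2 (0.60) rose with FSL-1, and Lcn2 (-1.78) and Mmp8 (-0.62) fell with nutlin-3a. In the 3 groups 5, 3 and 4 of the 14 lay below the median of unnamed probe sets, Ly6g, Camp and Retnlg in each of them, while Elane, Mpo, Prtn3, Ltf and S100a9 lay above it in each and were not called in these 2 comparisons. Fibroblast and stromal markers summed to 624 to 670, 845 to 1119 and 569 to 638, with 2 of 12 higher with FSL-1 and 2 lower with nutlin-3a. Dendritic markers (664 to 723, 810 to 842, 758 to 818) had 1 of 9 higher in each of these comparisons. Lymphocyte markers (1603 to 1913, 952 to 1028, 1371 to 1475) had 1 of 10 higher and 1 lower with FSL-1, and 1 higher with nutlin-3a. Erythroid, mast cell and megakaryocyte markers (529 to 598, 735 to 763, 473 to 488) had 1 of 8 higher and 1 lower, and then 1 lower. The brightest gene weighs most in these linear sums. It was Pf4 in the last list (means of 8.40, 9.11 and 8.25), called higher with FSL-1 and lower with nutlin-3a. It was Cd4 among lymphocyte (10.60, 9.59 and 10.23), Cd209a among dendritic (8.80, 9.13 and 8.94) and Acta2 among stromal markers (7.61, 8.59 and 7.26). Averaged over the arrays, Cpa3 and Mcpt8, and the lymphocyte genes Cd3g, Ms4a1 and Cd8a, lay below the median of unnamed probe sets. The neutrophil, the stromal, the dendritic and the erythroid, mast cell and megakaryocyte sums were highest on average in FSL-1, as were Fabp4 and Ch25h. The stromal and the erythroid, mast cell and megakaryocyte sums were, like Fabp4, lowest on average with nutlin-3a (the stromal range there overlapped that of M-CSF), and the part of these cells in these levels was not tested.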

How the data were processed

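Total RNA from sorted cells was amplified and biotin-labelled for hybridisation to Affymetrix arrays, as the labels' protocols state. The authors deposited log2 values per probe set, and the submitters' processing notes name RMA and Affymetrix Expression Console, version 1.4. RMA equalises the arrays, so a change shared by most genes would not show. The platform annotation gives 1 gene for 23521 of 34390 probe sets, several for 1814 and none for 9055, which left 22180 genes. Genome build: not given in the sources used here.

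limma 3.58.1 under R 4.3.3 (lmFit and eBayes, 3 residual and 4.88 prior degrees of freedom) was run on all genes, and was checked on simulated data. In simulated arrays with few changed genes, 6.04% of 1.5-fold and 73% of 2-fold changes between FSL-1 and M-CSF were called. Far fewer genes changed there than the 1521 called in the data, which makes the adjusted threshold stricter. These shares may thus be too low for the data. An uncalled change of such a size is still not shown to be absent. The 10 members and the lists were chosen with earlier results of these data known. The text names all members, up to 4 called genes with the smallest p per list and comparison, and the 3 nearest patterns of each called member; marker genes, Cd68 included, were named after their values were seen. List genes without a probe set of their own are not analysed here. Alternatives were a trended and robust prior, quantile normalization once more, array centring, averaging the probe sets of a gene, leaving out genes below the lower quartile of mean level, the compared groups alone, the replicate block and leaving out each array; a crossed block was added after seeing the data. Same-numbered arrays deviated from their group means with a correlation of -0.188 between M-CSF and FSL-1, 0.0175 between M-CSF and both agents, and -0.0248 between FSL-1 and both agents. Figures were drawn with matplotlib 3.10.9.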

Additional observations from a re-analysis of the deposited data

How the results depend on the processing

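With all arrays kept, only quantile normalization, array centring and, for Fabp5 and Lpl, averaging probe sets could move a member's difference of means. In the other alternatives its sign could not change, only its call. Over all these alternatives, 234 of 240 member changes kept their sign and their side of the threshold. The counts of called members stayed within 1.5 times those given. The other 6 were 3 calls gained with the trended and robust prior (Fabp5 with FSL-1, and Lpl and Plin2 between both agents and M-CSF), 2 Abca1 calls lost and 1 turned sign, of Pparg with nutlin-3a (0.0404 after quantile normalization once more). The trended and robust prior called 2744, 2658 and 3337 genes in FSL-1 against M-CSF, nutlin-3a against FSL-1 and both agents against M-CSF, in place of 1521, 1441 and 2110. The replicate block gave 1167, 1005 and 1725 genes and the same member counts; the numbers are not known to pair the samples. With the M-CSF numbers crossed it gave 1278, 1148 and 1971.

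When 1 array is dropped, the array left in its group is taken to be as variable as the rest. Genes called then ranged from 451 to 1299, from 352 to 1212 and from 1158 to 1529. Members called with FSL-1 ranged from 1 to 2 higher and 1 to 3 lower, and members higher with nutlin-3a from 1 to 2. Changes near 0 turned sign: Cd36 with FSL-1 ranged from -0.0775 to 0.0755, Pparg and Lpl with nutlin-3a from -0.14 to 0.111 and from -0.162 to 0.0148, and Apoe between both agents and M-CSF from -0.208 to 0.121. Of the other list genes, 10 of 328 values lost their call with all arrays. Many of these genes lost a call when 1 compared array was dropped, as the paragraphs on the lists say. Dropping an array outside the comparison cost a call only for Rxra and Smpdl3a between both agents and M-CSF. With 2 arrays a group, precision is limited throughout.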
